A study of Mus musculus with 42 samples.

Results

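The genes described here are 9 heart lineage genes of the mouse: Hand1, Hand2, Tbx5, Tbx20, Isl1, Mef2c, Myl7, Tnnt2 and Nkx2-5. They were chosen by name, with earlier results of these data known, and followed through 32 libraries of polyA-selected RNA from mouse embryonic stem cells (ESCs) and their differentiated progeny. The table of embryoid bodies (EBs, floating aggregates in which ESCs differentiate) holds all 9 among its 16753 genes. The table of epiblast-like cells (EpiLCs, ESCs moved toward the early post-implantation epiblast) holds 5 of them, Hand1, Tbx5, Tbx20, Isl1 and Myl7, among 16345 genes. Hand2, Mef2c, Tnnt2 and Nkx2-5 were not analysed in EpiLCs.

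KH2-ISY1 ESCs carry a Flag-tagged version of the splicing factor ISY1 under the control of doxycycline (Dox). The knockout libraries come from a separate ESC line that lacks DGCR8, a protein needed to cut most primary microRNA transcripts, so effects of line and of DGCR8 loss cannot be told apart. The libraries comprised 6 of the DGCR8 knockout line (in 2i/LIF at 0 h, then at 6, 24, 48, 72 and 96 h in EpiLC medium), 4 of KH2-ISY1 EpiLCs with Dox (24, 48, 72 and 96 h) and 1 of KH2-ISY1 ESCs with Dox in serum/LIF. They further comprised 7 of a KH2-ISY1 EB course without Dox (serum/LIF on day 0, then days 1, 2, 4, 8, 10 and 13), 2 of cells moved back to 2i/LIF from EpiLCs with Dox and 2 from EpiLCs without Dox (cESCs, from 24 h and 48 h EpiLCs, all 4 returned without Dox), and 10 of a KH2-ISY1 EpiLC course without Dox from 0 to 96 h. Each condition and time had 1 library, so the tests take the spread around a fitted time curve, or of a paired difference over hours, in place of replicate spread. No line without the ISY1 transgene was given Dox, so the drug and ISY1 cannot be told apart.

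In 24 of the 32 libraries the low values fell on the steps that read counts divided by 1 factor give, and the numbers are called normalised read counts here. They are not corrected for gene length, so levels are compared only between libraries and not between genes. In the EB table whole reads were recovered for every library. The first 3 libraries of the EB course held 23.71 to 56.02 M reads and the last 4 held 8.82 to 9.51 M reads, so 1 read was worth more on the late days. Intervals in brackets are 95% Poisson intervals of the reads and cover counting error only. The targeted genes followed the labels: Isy1 stood at 707.7 to 3038.3 in EpiLCs with Dox and at 267.0 to 557.5 without, at 5095.71 in serum/LIF with Dox and at 286.11 to 473.53 in the EB libraries without. Dgcr8 stood at 36.8 to 44.5 in the knockout line and at 75.2 to 231.0 in KH2-ISY1 without Dox; the labels do not say which part of the gene is deleted.

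The heart forms from mesoderm that leaves the primitive streak and settles in the first and second heart fields. There a small circuit of transcription factors (NKX2-5, the T-box factors TBX5 and TBX20, ISL1, MEF2C, HAND1 and HAND2, together with GATA factors) turns on the genes of the contractile apparatus, among them the atrial myosin light chain Myl7 and cardiac troponin T, Tnnt2. Several of these genes also act outside the heart: Hand1 in trophoblast and extraembryonic mesoderm, Hand2 in sympathetic neurons and limb buds, Isl1 and Tbx20 in motor neurons, and Mef2c in skeletal muscle, endothelium and brain.

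Every one of the 9 genes had its highest value of the EB course on day 13, the last day, against 28.8% of all genes in the table. Between day 13 and day 10 all 9 differed by at least 2-fold on the log2(value + 1) scale, all upward, against 11.1% of the genes tested (a comparison chosen after the values were seen). Against serum/LIF on day 0, day 13 was at least 2-fold higher for 7 of 9 genes, against 26.7% of the genes tested; Tbx20 and Nkx2-5 were the others. In bulk RNA, more cells of a type and more RNA per cell cannot be told apart.

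**Figure D1:**
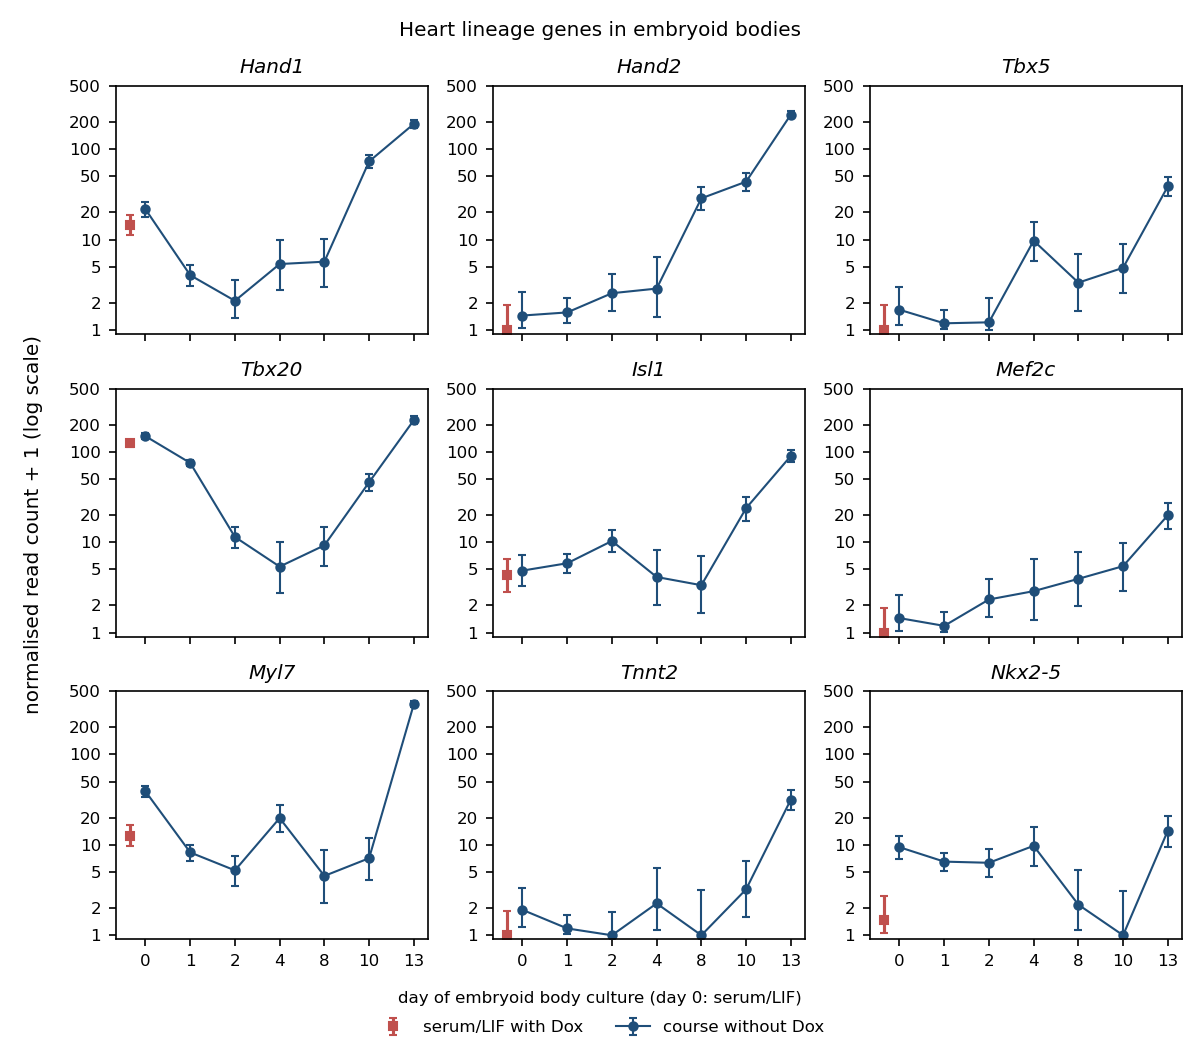
Normalised read count + 1 (log scale) of each heart lineage gene by day of EB culture, days drawn at equal spacing. Circles joined by lines are the libraries without Dox, squares the serum/LIF library with Dox, and bars 95% Poisson intervals. All 9 genes are highest on day 13; Hand1, Tbx20 and Myl7 fall after day 0 before they rise.

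Hand1, a basic helix-loop-helix factor of the left ventricle, had 20.68, 3.05, 1.11, 4.38, 4.71, 72.22 and 189.44 on days 0, 1, 2, 4, 8, 10 and 13. It was thus present in serum/LIF, lowest on day 2 and back above its starting level on day 10 [60.3 to 85.8, against 16.7 to 25.4 on day 0]. Hand2, its relative in the right ventricle and the second heart field, had 0.45, 0.57, 1.56, 1.88, 27.65, 42.78 and 240.00 on the same days. Hand2 rested on 2 reads on day 0 and 432 on day 13, a ratio of 533 (95% counting interval 146 to 4383). With onset taken as the first day at 10 or more and at least 4 times the day 0 value, Hand2 had the earliest onset of the 9, day 8.

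The T-box factors followed different courses. Tbx5, a factor of the first heart field and the forelimb, had 0.68, 0.19, 0.22, 8.75, 2.35, 3.89 and 37.78. A small peak on day 4 rested on 14 reads [4.78 to 14.7], an interval that overlaps those of days 8 and 10, and the day 13 value rested on 68 reads. Tbx20, which acts in the growing chambers, had 147.73, 74.29, 10.44, 4.38, 8.24, 45.00 and 222.78. It was thus a transcript of serum/LIF ESCs, with 650 reads there, that was lowest on day 4 with 7 reads and highest on day 13. Day 13 exceeded day 0 by a ratio of 1.51 (1.33 to 1.71).

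Isl1, the LIM-homeodomain factor of the second heart field, had 3.86, 4.86, 9.33, 3.13, 2.35, 22.78 and 88.89. It met the onset rule on day 10. Mef2c, a MADS-box factor of muscle genes, had 0.45, 0.19, 1.33, 1.88, 2.94, 4.44 and 18.89, the last from 34 reads. The intervals of neighbouring Mef2c libraries overlap through day 10, and that of day 13 [13.1 to 26.4] lies above all of them. Nkx2-5, the homeodomain factor of early heart progenitors, had 8.41, 5.52, 5.33, 8.75, 1.18, 0.00 and 13.33. Its day 13 interval [8.54 to 19.8] overlaps those of day 0 [5.92 to 11.6] and day 4 [4.78 to 14.7]. No Nkx2-5 read was counted on day 10 [0 to 2.05], where 3 reads would be worth 1.67. The day 13 value was 8 times that 3-read value, which is not a lower bound of the ratio.

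Of the contractile genes, Myl7, the atrial regulatory myosin light chain, had 37.95, 7.24, 4.22, 18.75, 3.53, 6.11 and 357.22. Day 13 over day 10 was a ratio of 58.5 (32.5 to 118), from 643 and 11 reads. Tnnt2, cardiac troponin T of the thin filament, had 0.91, 0.19, 0.00, 1.25, 0.00, 2.22 and 30.56, or 55 reads on day 13 and 4 on day 10, a ratio of 13.8 (5.08 to 52.2). Hand1, Tbx5, Mef2c, Myl7 and Tnnt2 met the onset rule on day 13 alone, and Tbx20 and Nkx2-5 on no day (day 13 over day 0 was a ratio of 1.51 and 1.59).

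The 9 genes thus began in different states. Hand2, Tbx5, Mef2c and Tnnt2 had 2 to 4 reads in serum/LIF. Hand1, Tbx20, Isl1, Myl7 and Nkx2-5 had 17 to 650 reads there. Of these 5, Hand1, Tbx20 and Myl7 were at least 2-fold lower on day 2 than on day 0, a change shared by 11% of the genes tested. Isl1 was at least 2-fold higher (a ratio of 2.42, 1.35 to 4.53), as were 7.74% of the genes tested. The 5 were set apart by their reads on day 0, the reference of this comparison, so the shares over all genes are not a like measure. The ratios of day 2 over day 0 were 0.0537 for Hand1, 0.0707 for Tbx20 and 0.111 for Myl7.

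Promoters are shown for 4 genes with contrasting courses: Myl7, Tnnt2 and Hand2, which were high on day 13, and Tbx20, which was also high in serum/LIF. The reference (RefSeq, build GRCm38.p6) held 10 promoter entries for 7 of the 9 genes, not for Hand1 and Tbx5. Each run is the 200 bases before the annotated start, 5′ to 3′ on the gene's own strand, with searched motifs in capitals.
Myl7 (chr11:5898783-5898982, minus strand): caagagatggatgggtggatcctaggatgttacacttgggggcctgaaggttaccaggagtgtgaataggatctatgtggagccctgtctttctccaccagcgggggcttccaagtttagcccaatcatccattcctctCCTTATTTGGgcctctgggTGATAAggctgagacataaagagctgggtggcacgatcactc
Tnnt2 (chr1:135836134-135836333, plus strand): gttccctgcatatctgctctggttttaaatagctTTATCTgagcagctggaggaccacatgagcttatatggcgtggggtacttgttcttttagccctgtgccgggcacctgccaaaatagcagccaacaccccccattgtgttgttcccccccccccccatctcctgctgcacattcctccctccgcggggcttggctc
Hand2 (chr8:57320783-57320982, plus strand): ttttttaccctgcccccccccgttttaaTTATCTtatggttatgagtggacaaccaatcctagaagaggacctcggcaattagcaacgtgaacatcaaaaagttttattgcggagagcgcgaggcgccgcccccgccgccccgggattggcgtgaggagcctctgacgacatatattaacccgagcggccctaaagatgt
Tbx20 (chr9:24774304-24774503, minus strand): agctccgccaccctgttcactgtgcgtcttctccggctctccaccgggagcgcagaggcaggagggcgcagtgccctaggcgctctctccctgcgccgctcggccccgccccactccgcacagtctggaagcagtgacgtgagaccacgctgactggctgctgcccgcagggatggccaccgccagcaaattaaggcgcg

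The motifs were searched on both strands of the 250 bases before the start, in the 10 entries and in all 32851 promoters of the table. A GATA motif (AGATAA or TGATAA) was found in 4 of the 10 entries, those of Hand2, Isl1, Myl7 and 1 of Tnnt2, and in 16.6% of all promoters. In Myl7 it begins 42 bases before the start and in Tnnt2 166 bases before. The CArG box, the site of serum response factor, was found in Myl7 alone, 61 bases before the start, and in 1.47% of all promoters; it does not overlap the GATA motif. The TATA motif (TATAAA) was in 2 entries, both of Mef2c, and in 12.4% of promoters. The T-box site (TCACACC, 3.33% of promoters) and the MEF2 site (1.69%) were in none of the 10. The Tbx20 window had 68.8% G and C, against a median of 52.4% over all promoters. A match describes letters only and says nothing about binding.

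A curve fitted over the 7 EB days (limma, natural spline of the square root of day) called 4 of the 9 genes at an adjusted p under 0.05, against 26.9% of all genes tested. The adjusted p tests the whole curve, and a call is named higher or lower by the curve's fitted ends. The fitted difference of day 13 minus day 0 was 7.12 ± 0.59 (log2 ± SE, adjusted p = 0.000982) for Hand2, 3.05 ± 0.90 (adjusted p = 0.00632) for Hand1 and 3.26 ± 0.78 (adjusted p = 0.0289) for Mef2c. Tbx20 was called for its curve (adjusted p = 0.0258); its fitted ends differed by -0.94 ± 1.08, and this sign turned to 2.05 without the day 0 library, to 0.09 without day 1 and to 1.25 on a curve of the day itself. The median fitted difference was 2.69 over the 9 genes and 0.12 over all genes tested.

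The other 5 did not pass the test. The fitted differences were 3.71 ± 1.26 for Tbx5 (adjusted p = 0.0937), 2.69 ± 1.19 for Isl1 (adjusted p = 0.109), 0.91 ± 1.67 for Myl7 (adjusted p = 0.172), 2.55 ± 1.23 for Tnnt2 (adjusted p = 0.0921) and -1.38 ± 1.39 for Nkx2-5 (adjusted p = 0.686). The edgeR quasi-likelihood test on recovered reads called 3 of these, Isl1 at 3.21 (adjusted p = 0.047), Myl7 at 2.21 (adjusted p = 0.0478) and Tnnt2 at 4.32 (adjusted p = 0.0158), and did not call Tbx20 (adjusted p = 0.0591). Tnnt2 reached the mean of 1 needed for testing only through its day 13 library, so its edgeR call rests on that library. Without the day 13 library the limma call was lost for Hand1 (0.74, adjusted p = 0.0679), Mef2c (2.02, adjusted p = 0.208) and Tbx20 (-3.18, adjusted p = 0.0948) and kept for Hand2 (5.03, adjusted p = 0.0112), and the uncalled difference of Myl7 turned to -2.21 (adjusted p = 0.3). The Mef2c call was also lost without day 1 (adjusted p = 0.0731), day 2 (0.0587) or day 10 (0.0688), and the Tbx20 call without day 4 (0.0567) or day 10 (0.0818). A straight line in the square root of day called neither Hand1 (3.58, adjusted p = 0.214) nor Tbx20 (-0.42, adjusted p = 0.896), and the difference of Hand1 was 5.79 without the day 0 library (adjusted p = 0.00383). Leaving out a library added a call for Tbx5 (without day 4, adjusted p = 0.015) and for Isl1 (without day 0, adjusted p = 0.0238, or day 8, 0.0371).

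The rest of the heart program was followed through 5 lists of genes, whose counts stand against 17.3% of all genes called higher and 9.61% called lower on the EB course. Of 17 sarcomere genes in the EB table, 17 were highest on day 13, 15 were at least 2-fold higher on day 13 than on day 10, and 6 passed the curve test, all higher. The largest fitted differences were those of Myl3, a ventricular myosin light chain (6.84 ± 1.14, adjusted p = 0.00973), Mybpc3, cardiac myosin-binding protein C (4.64 ± 0.74, adjusted p = 0.0027), and Nebl, the Z-disc protein nebulette (4.56 ± 0.80, adjusted p = 0.0131). The sarcomere list summed to 2752 on day 13 and 353 on day 10. Named after their values were seen, cardiac actin Actc1 had 964.44 on day 13 and 15.00 on day 10, and the alpha myosin heavy chain Myh6 had 743.33 and 11.11 on those days.

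Of 7 genes for calcium handling and ion channels, 6 were highest on day 13 and 4 passed, all with a higher fitted end (for Ryr2 by 0.67 ± 0.77, less than its SE), led by the pacemaker channel Hcn4 (5.26 ± 0.96, adjusted p = 0.0107), the L-type calcium channel Cacna1c (5.10 ± 0.67, adjusted p = 0.00302) and the sodium-calcium exchanger Slc8a1 (4.24 ± 0.71, adjusted p = 0.00817). Of 15 other heart transcription factors, 10 were highest on day 13 and 6 passed, all higher, led by Nr2f2, an atrial and venous nuclear receptor (8.89 ± 0.92, adjusted p = 0.00197), Gata4 (5.04 ± 0.73, adjusted p = 0.0054) and Gata5 (4.5 ± 0.94, adjusted p = 0.0168). Gata4 had 25.23, 12.48, 21.78, 78.75, 277.65, 304.44 and 401.11 on days 0, 1, 2, 4, 8, 10 and 13. Nr2f2 had 237.65 on day 8 and 378.89 on day 13. The 5 endoderm genes listed below summed to 2455 and 5473 on those days, and the 9 heart lineage genes to 53 and 1199. Of 9 secreted factors and signals, 4 were highest on day 13 and 3 were at least 2-fold higher on day 13 than on day 10. The curve test called 4 as higher and 2 as lower. Wnt2 (4.17 ± 1.23, adjusted p = 0.0286) and Bmp2 (3.87 ± 0.77, adjusted p = 0.00683) were higher and Bmp4 (-3.49 ± 0.96, adjusted p = 0.0352) lower. The other lower gene was Nppb (-2.25 ± 0.62, adjusted p = 0.0167), with 27.73 on day 0 and 6.67 on day 13.

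Genes of the mesoderm that precedes the heart were mixed. Of 7, 2 were highest on day 13, 1 was at least 2-fold higher on day 13 than on day 10, and 3 passed the curve test as higher and 1 as lower. T, the brachyury factor of the primitive streak (7.0 ± 1.42, adjusted p = 0.0172), had 107.06 on day 8, 316.67 on day 10 and 83.33 on day 13. Pdgfra (6.36 ± 1.14, adjusted p = 0.0103) had 443.53, 428.33 and 495.00 on those days, and Kdr, the VEGF receptor of cardiovascular progenitors (4.96 ± 0.70, adjusted p = 0.00195), had 10.00, 71.11 and 243.33. Chosen after their values were seen, Eomes had 13.33 on day 13 and 88.89 on day 10, and Mesp1 1.67 and 10.56. The median difference of day 13 minus day 10 was -1.91 (log2) over the mesoderm list and 2.46 over the 9 heart lineage genes, and 0.05 over all genes.

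**Figure D2:**
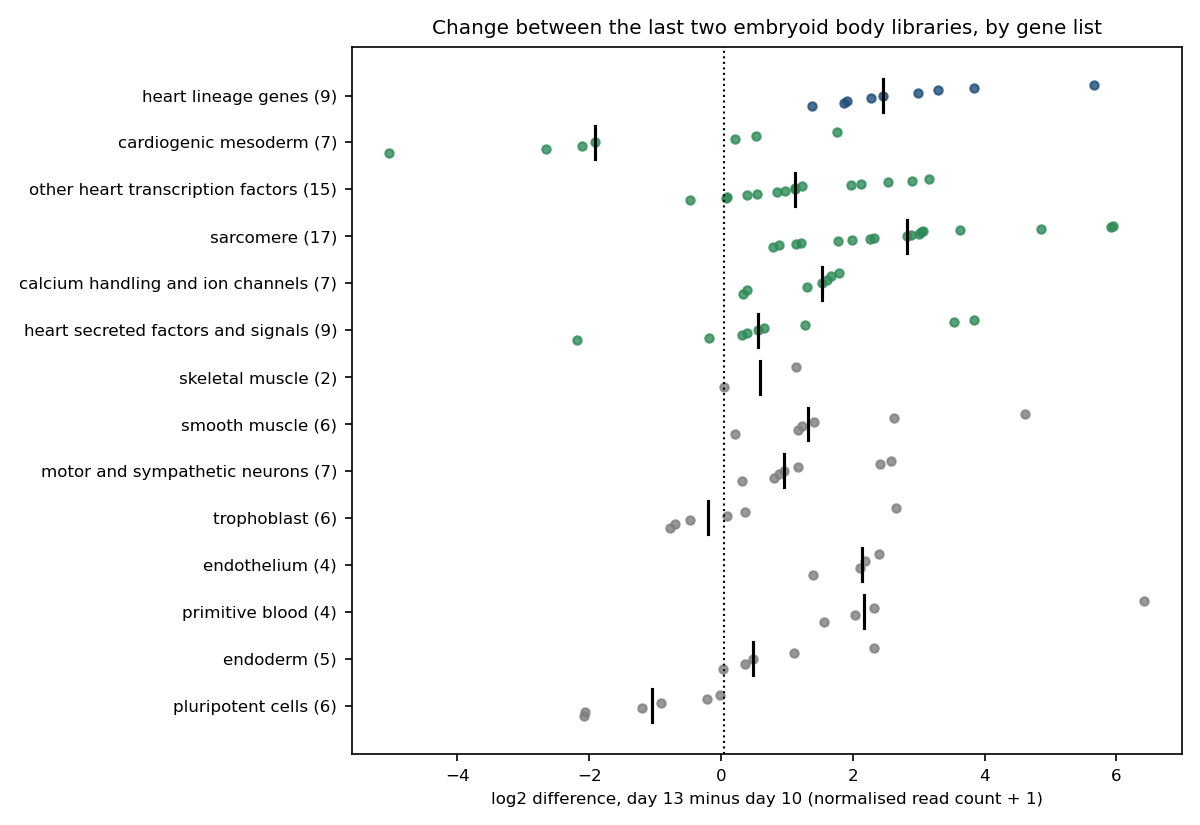
Difference of log2(normalised read count + 1), day 13 minus day 10, for each gene (points) of the heart lineage genes, the 5 other heart lists and the lists of other cell types, with the number of genes in brackets. Thick bars are list medians and the dotted line the median of all genes (0.05). The 9 heart lineage genes and 17 sarcomere genes all lie to the right of 0, and the mesoderm median lies at -1.91.

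Markers of other cell types moved over the same days. Of 7 markers of motor and sympathetic neurons, 6 were highest on day 13, with a summed value of 11947 on day 13, 6529 on day 10 and 573 on day 0. Of 4 primitive blood markers, 3 were highest on day 13, with sums of 857 on day 13 and 36.1 on day 10, mostly the embryonic globin Hbb-y (752.22 and 7.78). The endothelial list summed to 475 and 95, the smooth muscle list to 1495 and 258, and the endoderm list to 5473 and 2235 on days 13 and 10. The trophoblast list summed to 146 and 171, and the skeletal muscle list, of which Acta1 and Mylpf were in the table, to 119 and 61.1. The pluripotency list summed to 1295 and 2736, against 34099 on day 0. Hbb-y, the endoderm genes Afp and Ttr and the trophoblast gene Tpbpa were at 0 on day 0, and no marker of these lists in the table was at 0 on day 13. The part of these cell types in the values of Hand1, Hand2, Isl1, Tbx20 and Mef2c, and in those of the other heart lists, was not tested.

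The genes whose EB course was most like that of each heart lineage gene were ranked by Pearson's r of log2(value + 1) over the 7 libraries, among 12965 genes that reached 50; with 7 points that share a common time axis, r is a description only. For Tbx5 the first was Actc1 (r = 0.988), for Tbx20 the neuropilin gene Nrp2 (0.996), for Myl7 Git1 (0.995) and for Nkx2-5 Acot7 (0.961). For Hand1 it was Mfsd6 (0.986) followed by the neuronal tau gene Mapt (0.978), for Hand2 Hmbox1 (0.995), for Isl1 Irgq (0.990), for Mef2c Gprasp1 (0.996), and for Tnnt2 the homeobox gene Lhx2 (0.992). Nrp2, like Tbx20, was high in serum/LIF (180.00), lowest on day 4 (9.38) and highest on day 13 (244.44). The third for Nkx2-5 was desmin, Des (0.942).

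In serum/LIF, where the Dox and no Dox libraries had similar depth, Myl7 and Nkx2-5 were the genes at least 2-fold lower with Dox, 2 of the 5 that reached the tested level, against 8.2% of all genes tested. Myl7 had 11.67 with Dox and 37.95 without, from 49 and 167 reads, a ratio of 0.308 (0.219 to 0.425). Nkx2-5 had 0.48 with Dox and 8.41 without, from 2 and 37 reads, a ratio of 0.0571 (0.00662 to 0.22). Tbx20 had 123.10 and 147.73, a ratio of 0.833 (0.742 to 0.937), Hand1 13.57 and 20.68, a ratio of 0.656 (0.463 to 0.924), and Isl1 3.33 and 3.86. Hand2, Tbx5, Mef2c and Tnnt2 had no read with Dox and 2, 3, 2 and 4 reads without. These are single libraries, so the differences have no replicate check.

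On the way from 2i/LIF to EpiLCs without Dox, Tbx20, Isl1 and Tbx5 had called curves that ended lower, among the 5 genes of that table. Of the 5, 4 were called on the curve over 10 hours, against 50.1% of all genes tested. Tbx5 is among these 4 only through its 0 h library, without which its mean was too low for testing. Tbx20 had 40.9, 82.7, 38.9, 32.6, 8.2, 4.1, 4.1, 2.7, 7.5 and 15.7 at 0, 6, 12, 18, 24, 30, 36, 48, 72 and 96 h, with a high at 6 h, a low at 48 h and a partial return. Its fitted difference of 96 h minus 0 h was -1.19 ± 0.58 (adjusted p = 0.000125). This was -2.25 without the 0 h library and -2.32 without the 96 h library, and the curve was not called with 2 degrees of freedom (-3.43, adjusted p = 0.0573). Isl1 had 11.3, 8.3, 5.4, 6.4, 6.4, 1.8, 4.7, 2.7, 1.5 and 0.4 and fell by 3.06 ± 0.68 (adjusted p = 0.00768; 0.0548 without the 96 h library, and 0.0567 by edgeR from 0 to 72 h, chosen after seeing the data).

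Tbx5 had 10.4 at 0 h, from 12 reads [5.39 to 18.2], and 0.0 to 1.0 at every later hour, a fall of 2.73 ± 0.84 (adjusted p = 0.0131); without the 0 h library its mean was too low for testing. Hand1 had 2.6, 3.6, 7.2, 2.9, 0.9, 0.6, 0.6, 0.0, 2.0 and 1.7, highest at 12 h and lowest at 48 h. Its curve was called (adjusted p = 0.0386), but its fitted ends differed by -0.01 ± 0.80, a sign that flipped under other scalings, and the call was lost when the 0, 6, 12, 18, 30, 36 or 48 h library was left out (adjusted p 0.0563 to 0.145), with a pseudocount of 5 (0.0661) or with 2 degrees of freedom (0.377). Myl7 had 19.1 at 0 h, 6.2 to 13.7 afterwards and 8.9 at 96 h, a difference of -0.93 ± 0.51 (adjusted p = 0.104). Over 5 genes the median fitted difference was -1.19, and -0.02 over all genes tested.

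**Figure D3:**
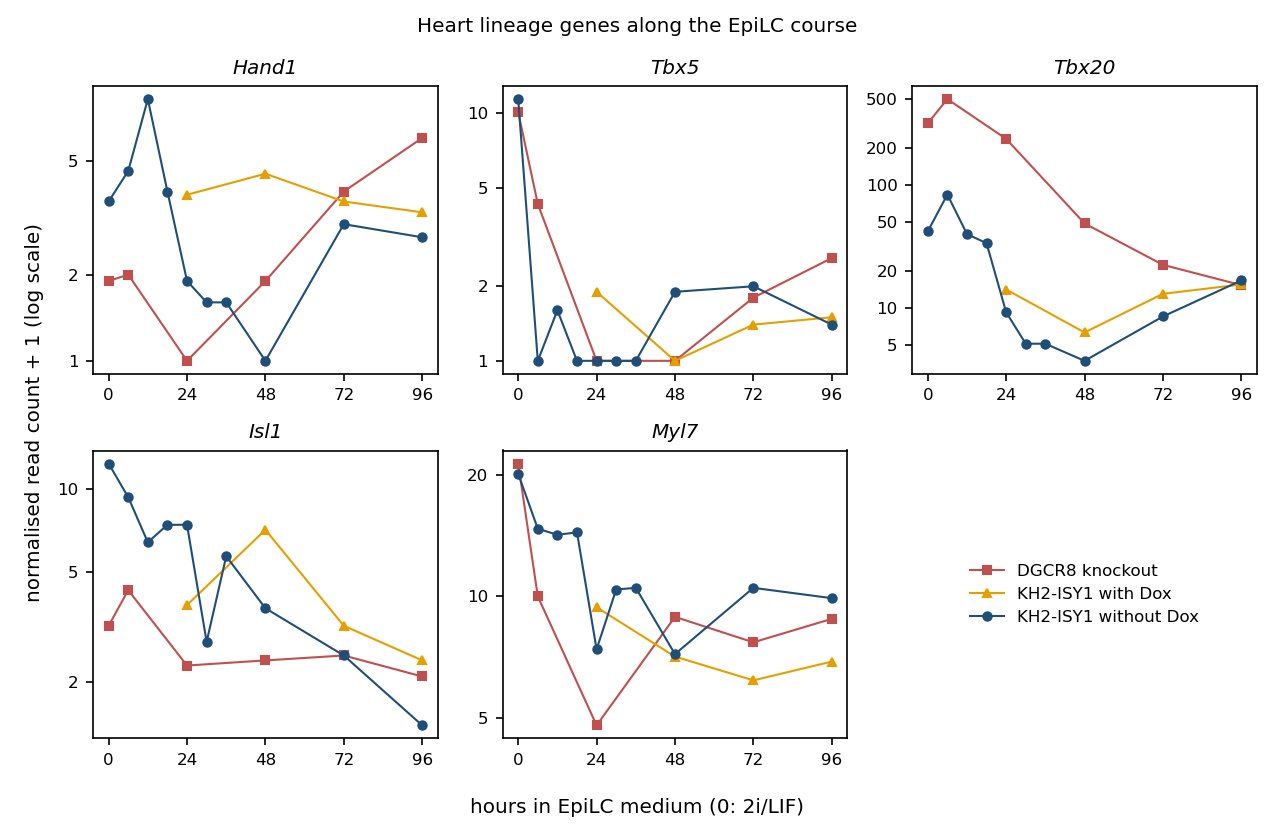
Normalised read count + 1 (log scale) of the 5 heart lineage genes of the EpiLC table against hours in EpiLC medium. Squares are the DGCR8 knockout line, triangles KH2-ISY1 with Dox and circles KH2-ISY1 without Dox, 1 library per point. Tbx20 lies above the circles in the knockout line from 0 to 72 h and meets them at 96 h (14.3 and 15.7).

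Other heart genes changed in both directions along the same hours, where 25.4% of all genes tested were called with a higher and 24.8% with a lower fitted end. Of 14 sarcomere genes, 7 were called with a higher and 4 with a lower end; Myh6 (5.25 ± 0.88, adjusted p = 0.00111), Actc1 (4.97 ± 0.84, adjusted p = 0.000963) and Myh7 (3.99 ± 0.99, adjusted p = 0.0329) were higher. Myh6 had 1.7 at 0 h, 125.5 at 72 h and 65.5 at 96 h, while Myl7 was not higher at any of these hours than at 0 h. The ends of Smyd1 (-0.08 ± 0.96), Nebl (0.19 ± 0.94) and Ldb3 (0.22 ± 0.79) differed by less than their SE; Smyd1 had 5.2 at 0 h, 54.5 at 24 h and 4.3 at 96 h. Of 12 other heart transcription factors 2 were called with a higher end (Hey1 by 0.24 ± 0.49) and 4 with a lower end, a share of calls near that of all genes, the largest being Tbx3 (-6.56 ± 0.70, adjusted p = 2.97e-05), Tbx18 (-4.46 ± 1.23, adjusted p = 0.0174) and Gata6 (-3.55 ± 0.60, adjusted p = 0.00342). Of 6 calcium and channel genes 2 were called with a higher end (Hcn4 by 0.83 ± 0.85) and 2 fell, Ryr2 by 2.47 ± 0.66 (adjusted p = 0.0121) and Casq2 by 1.32 ± 0.73 (adjusted p = 0.00547). Of 6 secreted factors 2 were called with a higher and 3 with a lower end, with Fgf10 at -5.24 ± 0.78 (adjusted p = 0.000328), Nppb at -3.22 ± 1.20 (adjusted p = 0.00258) and Nrg1 at 2.14 ± 0.92 (adjusted p = 0.0477). Bmp4, one of those with a lower end (-0.44 ± 0.63), had 9.6 at 0 h, 340.7 at 12 h and 8.5 at 96 h, a transient high with similar ends. Nppb also passed through a high before its lower end, with 12.2 at 0 h, 239.3 at 6 h, 29.3 at 12 h and 0.9 at 96 h. Of 5 mesoderm genes 1, Kdr, fell, by 2.73 ± 0.75 (adjusted p = 0.000781). The pluripotency list summed to between 10029 and 43522 over these 10 libraries.

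Of the 5 genes, Tbx20 passed the test between the DGCR8 knockout line and KH2-ISY1 without Dox. In the knockout line it had 318.1, 500.5, 236.7, 47.7, 21.4 and 14.3 at 0, 6, 24, 48, 72 and 96 h, against 40.9, 82.7, 8.2, 2.7, 7.5 and 15.7 in KH2-ISY1 without Dox. The knockout value was thus higher at 5 of 6 hours, by 2.85-fold at 72 h to 28.9-fold at 24 h, and not at 96 h. Over the 6 pairs, with hour as a block, the difference was 2.53 ± 0.53 (log2, limma, adjusted p = 0.00496). It was 2.10 to 3.06 with each pair left out in turn, and not called without the hour block (adjusted p = 0.0852). This was 1 of 5 genes called higher, against 18.1% of all genes tested.

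The other 4 did not pass. Isl1 had 2.2, 3.3, 1.3, 1.4, 1.5 and 1.1 in the knockout line and 11.3, 8.3, 6.4, 2.7, 1.5 and 0.4 in KH2-ISY1 without Dox, a difference of -0.80 ± 0.39 (adjusted p = 0.124). The knockout line began low in Isl1 and the 2 lines met at 72 h. Hand1 had 0.9, 1.0, 0.0, 0.9, 2.9 and 5.0 in the knockout line and 2.6, 3.6, 0.9, 0.0, 2.0 and 1.7 without Dox, a difference of -0.10 ± 0.42 (adjusted p = 0.861). Tbx5 had 9.1, 3.3, 0.0, 0.0, 0.8 and 1.6 in the knockout line and 10.4, 0.0, 0.0, 0.9, 1.0 and 0.4 without Dox (0.29 ± 0.43, adjusted p = 0.606), and Myl7 had 20.3, 9.0, 3.8, 7.9, 6.7 and 7.8 against 19.1, 13.7, 6.4, 6.2, 9.5 and 8.9 (-0.23 ± 0.22, adjusted p = 0.414). The median difference was -0.10 over the 5 genes and -0.08 over all genes tested.

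Whether the knockout difference changed along the course was tested as its slope on the square root of hour. By limma 0 of the 5 genes were called, against 0.523% of all genes tested, and 2, Hand1 and Isl1, had an unadjusted p under 0.05. The slope, given as its change from 0 to 96 h, was 2.35 ± 0.92 (log2) for Hand1 (adjusted p = 0.286), 2.31 ± 0.82 for Isl1 (adjusted p = 0.242), -2.37 ± 1.35 for Tbx20 (adjusted p = 0.462), -0.46 ± 1.23 for Tbx5 (adjusted p = 0.899) and -0.02 ± 0.65 for Myl7 (adjusted p = 0.995). No count test was run for the knockout line, since whole reads were recovered for its 48 h library alone.

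**Figure D4:**
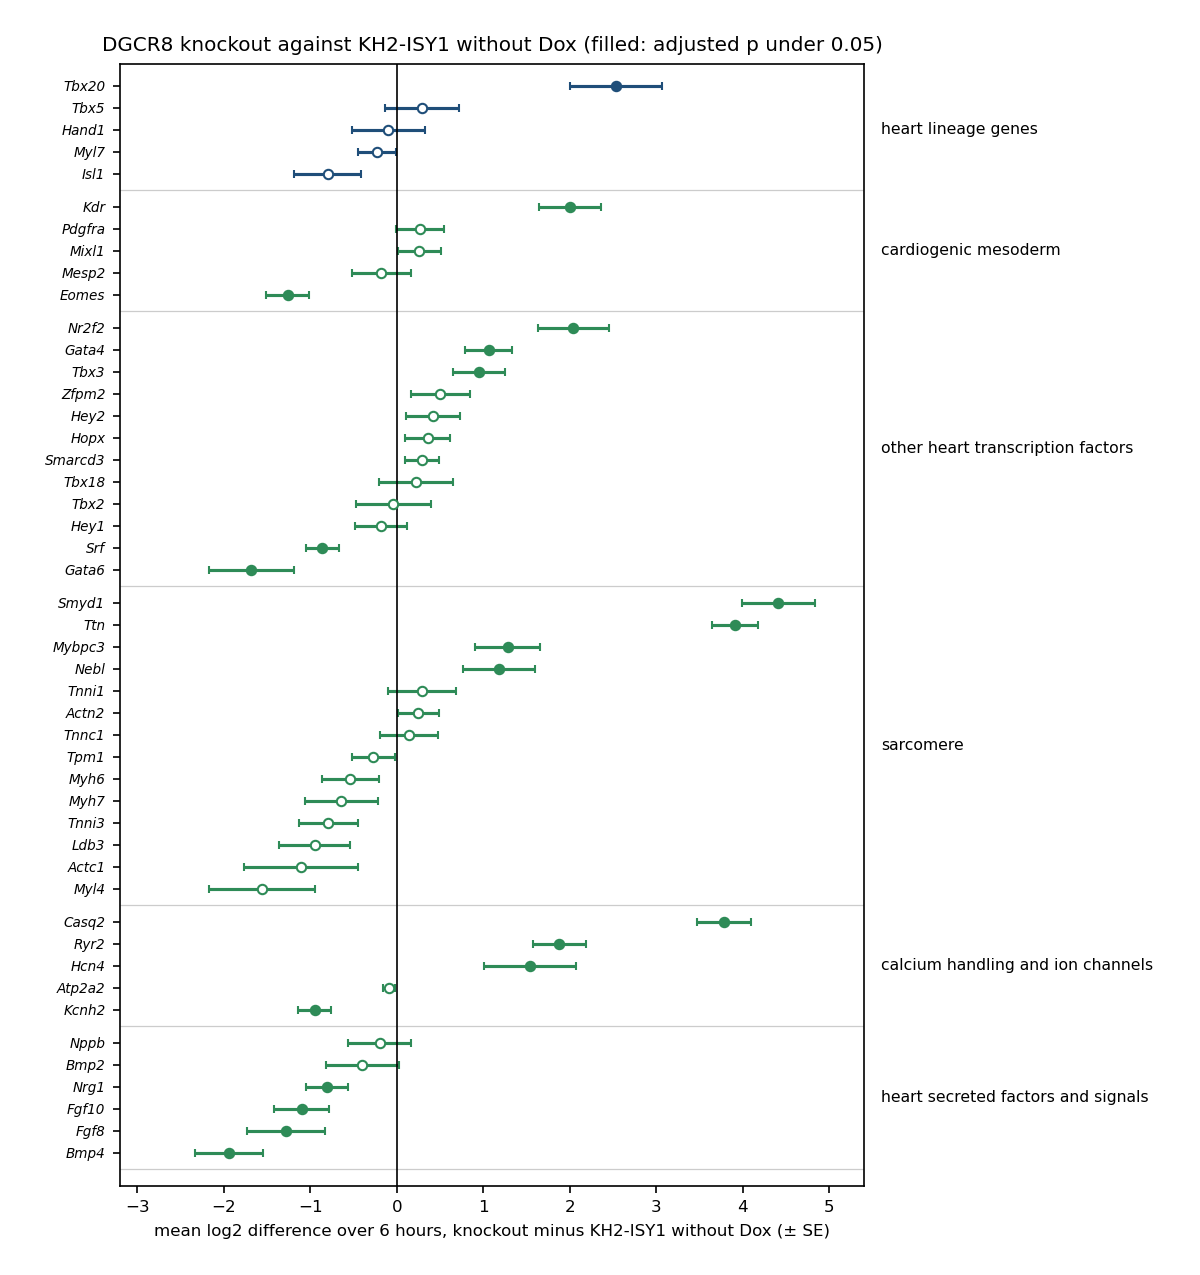
Mean log2 difference over 6 hours, DGCR8 knockout minus KH2-ISY1 without Dox, with its SE, for the heart lineage genes (top, blue) and the other heart lists (green; 1 gene is not drawn). Filled points have an adjusted p under 0.05. Tbx20 (2.53) lies among the filled points with Smyd1 (4.41), Ttn (3.91), Casq2 (3.78) and Kdr (2.00), and the other 4 heart lineage genes lie near 0 or below.

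Some other heart genes were also higher in the knockout line, where 18.1% of all genes tested were called higher and 24.3% lower. Muscle genes did not rise as a whole: of 4 smooth muscle genes 0 were called higher and 3 lower by limma. These were Des (-3.71 ± 0.36, adjusted p = 0.000153), Cnn1 (-1.86 ± 0.35, adjusted p = 0.00291) and Smtn (-0.78 ± 0.16, adjusted p = 0.0049). Of 2 skeletal muscle genes 0 were called. Of 14 sarcomere genes 4 were higher and none was called lower, led by the muscle methyltransferase Smyd1 (4.41 ± 0.42, adjusted p = 0.000145), titin, Ttn (3.91 ± 0.27, adjusted p = 3.99e-05), and Mybpc3 (1.28 ± 0.38, adjusted p = 0.024). Ttn had 219.7, 802.9, 533.3, 215.4, 317.6 and 101.4 in the knockout line and 29.6, 47.0, 64.5, 13.3, 9.5 and 3.0 without Dox, higher at every hour. Of 6 calcium and channel genes 3 were higher and 1 lower, with calsequestrin Casq2 at 3.78 ± 0.31 (adjusted p = 8.28e-05), the ryanodine receptor Ryr2 at 1.88 ± 0.31 (adjusted p = 0.0015) and Hcn4 at 1.54 ± 0.53 (adjusted p = 0.0436). Casq2 had 110.9, 187.1, 230.4, 134.1, 36.7 and 15.2 against 7.0, 13.7, 11.8, 2.7, 2.5 and 2.1, and both Casq2 and Tbx20 were lower in the knockout line at 48, 72 and 96 h than at 24 h.

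Among 12 transcription factors 3 were higher and 2 lower in the knockout line, a share of calls near the 42.4% of all genes; Nr2f2 (2.04 ± 0.41, adjusted p = 0.00413) and Gata4 (1.06 ± 0.27, adjusted p = 0.0126) were higher and Gata6 (-1.68 ± 0.49, adjusted p = 0.0222) lower. Of 5 mesoderm genes Kdr was higher (2.00 ± 0.36, adjusted p = 0.00239) and Eomes lower (-1.26 ± 0.25, adjusted p = 0.00403). Of 6 secreted factors 4 were lower, with Bmp4 at -1.94 ± 0.39 (adjusted p = 0.00405), Fgf8 at -1.28 ± 0.45 (adjusted p = 0.0469) and Fgf10 at -1.10 ± 0.32 (adjusted p = 0.0227). Over all genes 2941 were called higher and 3958 lower; with median-ratio scaling these were 3570 and 3121. In the knockout line the pluripotency list summed to 16416 to 38742, against 10029 to 43522 in the 10 libraries without Dox. The neuron list (Phox2a, Tubb3 and Stmn2 here) summed to 1273 to 3497, against 1172 to 2173. Its members went in different directions by limma. Tubb3 was called higher (1.18 ± 0.24, adjusted p = 0.00397), Phox2a lower (-2.36 ± 0.25, adjusted p = 0.000195), and Stmn2 was not called (0.40 ± 0.20, adjusted p = 0.124). The endothelial list (Pecam1 and Tek, both called higher) summed to 215 to 476, against 14.5 to 381. Pecam1 was itself high in 2i/LIF cells without Dox (353.9) and fell to 8.1 at 96 h. Of 6 pluripotency genes 2 were called higher, Sox2 (1.54 ± 0.36, adjusted p = 0.00776) and Esrrb (1.08 ± 0.27, adjusted p = 0.0125). The slope test called 3 of these 6 (Sox2, Dppa5a and Esrrb, all higher), against 0.523% of all genes tested. The part of these lists in the Tbx20 difference was not tested.

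Dox in EpiLC medium called 0 of the 4 tested heart lineage genes, against 2.83% of all genes tested, and 0 of the 4 had an unadjusted p under 0.05 (limma, 4 pairs with hour as a block). By edgeR on the 24 h and 48 h pairs 0 of the 4 were called (adjusted p 0.422 to 1). Tbx20 had 13.1, 5.3, 12.0 and 14.5 with Dox at 24, 48, 72 and 96 h, against 8.2, 2.7, 7.5 and 15.7 without, a difference of 0.47 ± 0.27 (adjusted p = 0.336). Hand1 had 2.8, 3.5, 2.6 and 2.3 with Dox and 0.9, 0.0, 2.0 and 1.7 without, higher at 4 of 4 hours (0.93 ± 0.45, adjusted p = 0.263). Isl1 had 2.8, 6.1, 2.2 and 1.4 with Dox and 6.4, 2.7, 1.5 and 0.4 without (0.28 ± 0.42, adjusted p = 0.737), and Myl7 8.4, 6.1, 5.2 and 5.9 against 6.4, 6.2, 9.5 and 8.9 (-0.24 ± 0.30, adjusted p = 0.672). Tbx5 stayed at 0.9 or less with Dox and at 1.0 or less without, under the mean of 1 needed for testing.

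Dox calls over all genes were 1.78% higher and 1.05% lower. Of 12 other heart transcription factors, the T-box repressor Tbx3 (2.44 ± 0.30, adjusted p = 0.0318) and Gata6 (2.03 ± 0.33, adjusted p = 0.0371) were higher and Srf lower (-0.79 ± 0.14, adjusted p = 0.042). Bmp4 was higher (1.21 ± 0.22, adjusted p = 0.0423) among 5 secreted factors. Tbx3 was itself high in 2i/LIF (433.9). It had 54.5, 8.0, 5.5 and 3.4 at 24, 48, 72 and 96 h without Dox and 146.7, 63.2, 55.4 and 22.2 with Dox. Of 6 pluripotency genes 2 were also called higher with Dox, Esrrb (1.80 ± 0.31, adjusted p = 0.0392) and Dppa5a (0.55 ± 0.10, adjusted p = 0.0435). The part of pluripotent cells in these heart list differences was not tested. By limma 0 of 5 mesoderm, 0 of 12 sarcomere and 0 of 6 calcium and channel genes were called, with 1, 3 and 2 at an unadjusted p under 0.05. Over all genes the number of Dox calls was 456, and 0 without the 48 h or the 72 h pair.

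The cESC libraries, in which EpiLCs had been moved back to 2i/LIF, were compared with 2i/LIF cells at 0 h as single libraries. In cESCs from EpiLCs with Dox 3 of the 5 genes were at least 2-fold lower than at 0 h, both from 24 h and from 48 h EpiLCs, against 9.9% and 12.1% of all genes tested; with a pseudocount of 5 this was 1 of 5 in each. In cESCs from 24 h EpiLCs without Dox all 5 were, against 18.9%, and in those from 48 h EpiLCs 4 of 5, against 10.8%. Both counts include genes with few reads. Hand1 had 0 reads in both [0 to 3.07 and 0 to 3.35], against 3 at 0 h [0.538 to 7.62]. Isl1 had 1 and 2 reads, against 13 at 0 h. Tbx20 had 19.3 and 22.5 in cESCs from 24 h and 48 h EpiLCs with Dox, 5.8 and 17.3 in those from EpiLCs without Dox, and 40.9 at 0 h. Tbx5, at 10.4 at 0 h, had 0.0 and 0.0 in cESCs from EpiLCs with Dox and 0.0 and 0.9 in those without. Isl1 had 4.4 and 4.5 in cESCs from EpiLCs with Dox, 0.8 and 1.8 in those without, and 11.3 at 0 h.

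Between the cESCs themselves, Tbx20, Isl1 and Myl7 were at least 2-fold higher with than without a history of Dox at 24 h, 3 of 3 tested, against 13.3% of all genes tested; at 48 h 0 of 3 were, against 5.04%. Myl7 had 15.8 with a Dox history and 2.5 without at 24 h, from 18 and 3 reads, and 9.0 and 14.5 at 48 h. Hand1 had 0.9 with a Dox history, from 1 read, at both hours and no read without. The 24 h library without a Dox history stood apart in scale: median-ratio scaling gave it a log2 factor of -0.2, the lowest of the table. The pluripotency list summed to 34841 to 36080 with a Dox history and 29384 to 34310 without.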

How the data were processed

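PolyA RNA was sequenced in 32 libraries from 3 ug of total RNA each; 10 small RNA libraries of the series were not used here. The deposited values have the unit signal: per the submitters' processing notes the authors used Bowtie and the builds GRCm38 and mm9, whose roles, the gene counter, the annotation and the normalisation are not given in the sources used here. In 24 libraries low values fell on multiples of a single step (tolerance 0.1 reads), as read counts divided by 1 factor would, and reads were recovered, with totals of 5.80 to 56.02 M; they were not recovered for the other 8.

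Values were analysed as log2(value + 1), which understates changes of low genes. Genes whose mean over a fit was 1 or more were tested with limma 3.58.1 (R 4.3.3, intensity trend), two-sided, with Benjamini-Hochberg adjustment over all genes and a threshold of 0.05. Courses were natural splines of the square root of time (2 degrees of freedom for EBs, 3 for EpiLCs) and pairs had hour as a block. The fits were tested on simulated data. Single libraries were compared without a test, as past a 2-fold difference or not. Alternatives were pseudocounts of 0.5 and 5, filters, 2 other scalings, no intensity trend, other curves, leaving out each library or pair, and edgeR 4.0.16 on recovered reads. The 9 genes and all lists were chosen with earlier results of these data known. Per list and comparison, the 3 genes with the largest change among those called are named, except genes not reported here. The EpiLC table has 1 line without a gene name (at most 0.00589% of a library), left out.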

Additional observations from a re-analysis of the deposited data

How the results depend on the processing

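Of the 9 heart lineage genes, Hand2 kept its direction and call on the EB course in all 17 alternatives. The fitted ends of Tbx20 on the EB course (-0.94) ranged from -3.18 to 2.05 with 1 library left out and were 1.25 on a curve of the day itself, and those of Myl7 (0.91) ranged from -2.21 to 3.35. Those of Hand1 on the EpiLC course (-0.01) ranged from -0.81 to 0.02 and were 0.03 with a pseudocount of 0.5, 0.01 with median-ratio scaling and 0.00 with TMM scaling. Differences that were never called also changed sign. With 1 pair left out, the knockout difference ranged from -0.35 to 0.12 for Hand1 and from -0.07 to 0.53 for Tbx5, and its change along the course from -0.21 to 0.42 for Myl7 (0.07 on the hour itself) and from -1.18 to 0.54 for Tbx5. The Dox difference by edgeR was -0.01 for Isl1 and 0.18 for Myl7. The cause of these changes was not tested.

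Counts over all genes moved more. The EB course had 4505 calls, and 1919 to 5847 with 1 library left out, lowest without day 10. The knockout pairs had 6899 calls and 3487 without the hour block. The knockout slope had 85 calls, 245 on the hour itself and 5 to 59 with 1 pair left out. The Dox pairs had 456 calls, 0 without the intensity trend (3306 at an unadjusted p under 0.05 by limma), 0 without the hour block (1276), 0 to 1122 with 1 pair left out (0 without 48 h or 72 h, with 3210 and 1924 unadjusted, 1122 without 24 h) and 109 by edgeR on the 24 h and 48 h pairs, chosen after seeing the data. With a pseudocount of 5, 1 of 5 genes in place of 3 was past 2-fold in each cESC library from EpiLCs with Dox. A count test of the knockout pairs was not run. The libraries carry no replicate numbers, and libraries were paired by hour. Low depth limits Tbx5, Mef2c, Tnnt2 and Nkx2-5 (24 reads on day 13), and the 4 genes outside the EpiLC table were not analysed there.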
